A study of Homo sapiens with 36 samples.

Results

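The transcripts described here are those that combined BRAF and MEK inhibition still changed in WM793TR-NR2F1 melanoma cells once NR2F1 had been switched on with doxycycline (DOX). The members are 6 RNA-Seq libraries of 36 in the series, chosen by their labels alone: 3 of cells given BRAFi + MEKi + DOX and 3 of cells given DMSO + DOX. WM793 is a human cutaneous melanoma line with the BRAF-V600E mutation, and its derivative used here carries the Tet repressor and a lentiviral NR2F1 cDNA that is silent until DOX is added. According to the labels and methods, cells received 100 ng/mL DOX for 24 h and then the BRAF inhibitor PLX4720 at 1 µM with the MEK inhibitor PD0325901 at 35 nM, or the solvent DMSO, for 72 h with DOX kept in the medium. Both groups of the comparison therefore hold DOX and the induced cDNA, and they differ in the inhibitors. Beside them stand 6 libraries of the same cells labeled with the same treatments without DOX, and 6 libraries each of 1205LuTR-NR2F1 and A375TR-NR2F1 cells with DOX. The methods give the 24 h with DOX for all cells, so that whether the libraries labeled without DOX had it before the treatments is not clear. No cells without the NR2F1 cDNA but with DOX were analysed here, so an effect of DOX itself and one of NR2F1 cannot be told apart. In bulk RNA, fewer cells of a kind and less RNA per cell cannot be told apart either.

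BRAF-V600E keeps MEK and ERK active without a growth factor, and ERK in turn drives ETS, EGR and AP-1 transcription factors, D-type cyclins and a set of its own inhibitors, the Sprouty, SPRED and DUSP proteins. Inhibitors of BRAF and MEK cut this output, and melanoma cells that survive them are known for leaving the cell cycle and for moving toward a pigmented, a neural crest-like or an undifferentiated state. NR2F1 (COUP-TF1) is an orphan nuclear receptor of the neural crest that is linked to tumor dormancy. The comparison asks which parts of the drug response are present when NR2F1 is abundant.

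Each library holds 1 normalized expression value per gene, scaled by the authors over all 36 libraries, and all values below are on that scale. Rounded, the values summed to between 33000000 and 33300000 in DMSO + DOX libraries and to between 28700000 and 29900000 in BRAFi + MEKi + DOX libraries, with no overlap. Reads, estimated from the commonest low value of a library, numbered between 25500000 and 29400000 and between 29200000 and 46400000, respectively. Replicates resembled each other, with r from 0.972 to 0.984 over genes on the log2 scale. SOX10, the lineage factor of melanocytes, was between 11574 and 16955 in the 6 libraries, whereas MLANA and TYR, both melanocyte antigens, were listed at 0 in all of them. Other lineage markers moved both ways with the inhibitors: S100B had a log2 change of 0.86 (adjusted p = 0.0073) and CSPG4 of -1.17 (adjusted p = 0.0086). Defining markers of keratinocytes (KRT5, KRT1, DSG3), endothelium (CDH5) and T lymphocytes (CD3E) were also listed at 0 throughout. Among the other markers, KRT10 of keratinocytes was between 266 and 353 and TP63 between 17.6 and 42.5. CD68, a leukocyte marker, was 469.7, 773 and 575 with DMSO + DOX and 779, 1434 and 1252 with BRAFi + MEKi + DOX, a log2 change of 0.91 (adjusted p = 0.022), and its part in the results was not tested.

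NR2F1 stayed at a high level under the inhibitors. NR2F1 (ENSG00000175745.14, chr5:93583222-93594611 on the plus strand of GRCh38) was 76313, 52746 and 65751 with DMSO + DOX and 30421, 50934 and 47577 with BRAFi + MEKi + DOX. The highest treated library lay below the lowest control library, but the log2 fold change, called log2 change below, of -0.61 (adjusted p = 0.45, SE 0.57) did not pass the threshold of an adjusted p under 0.05 in limma's moderated test. It passed with an adjusted p of 0.048 when only the 6 libraries compared were fitted, and it ranged from -0.76 to -0.38 when 1 of them was left out. Without DOX, NR2F1 was 917, 321 and 1511 with DMSO and 894, 689 and 3690.0 with BRAFi + MEKi, so that each library with DOX exceeded each library without it. NR2F2, the closest relative of NR2F1, fell from 1323, 1048 and 1002 to 599, 846 and 675, with a log2 change of -0.67 (adjusted p = 0.016, SE 0.19). NR2F1-AS1, the antisense neighbor, had a log2 change of 0.04 (adjusted p = 0.93, SE 0.26). The study's methods do not say whether reads kept their strand. If they did not, its reads cannot be told from those of NR2F1 where both overlap.

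The drug response with NR2F1 induced was broad. Of 22074 genes tested, 3684 were raised (16.7% of all genes tested) and 3324 were lowered (15.1%). Among them, 2132 rose and 1302 fell by more than 1 on the log2 scale, and 902 rose and 373 fell by more than 2. The libraries of the groups did not overlap for 3593 of the genes called raised and for 3278 of those called lowered, and over all genes tested 45.8% did not overlap. Since the treated libraries summed to less, the libraries were also rescaled to the same total. This moved the median log2 fold change of all genes by 0.15, from 0.12 to 0.27, and the share of called genes that were raised from 52.6% to 67.0%, with 4968 raised and 2450 lowered. EEF1A1, the elongation factor with the highest value in these cells, went from 555358, 588679 and 564184 to 257462, 277373 and 258198.

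**Figure D1:**
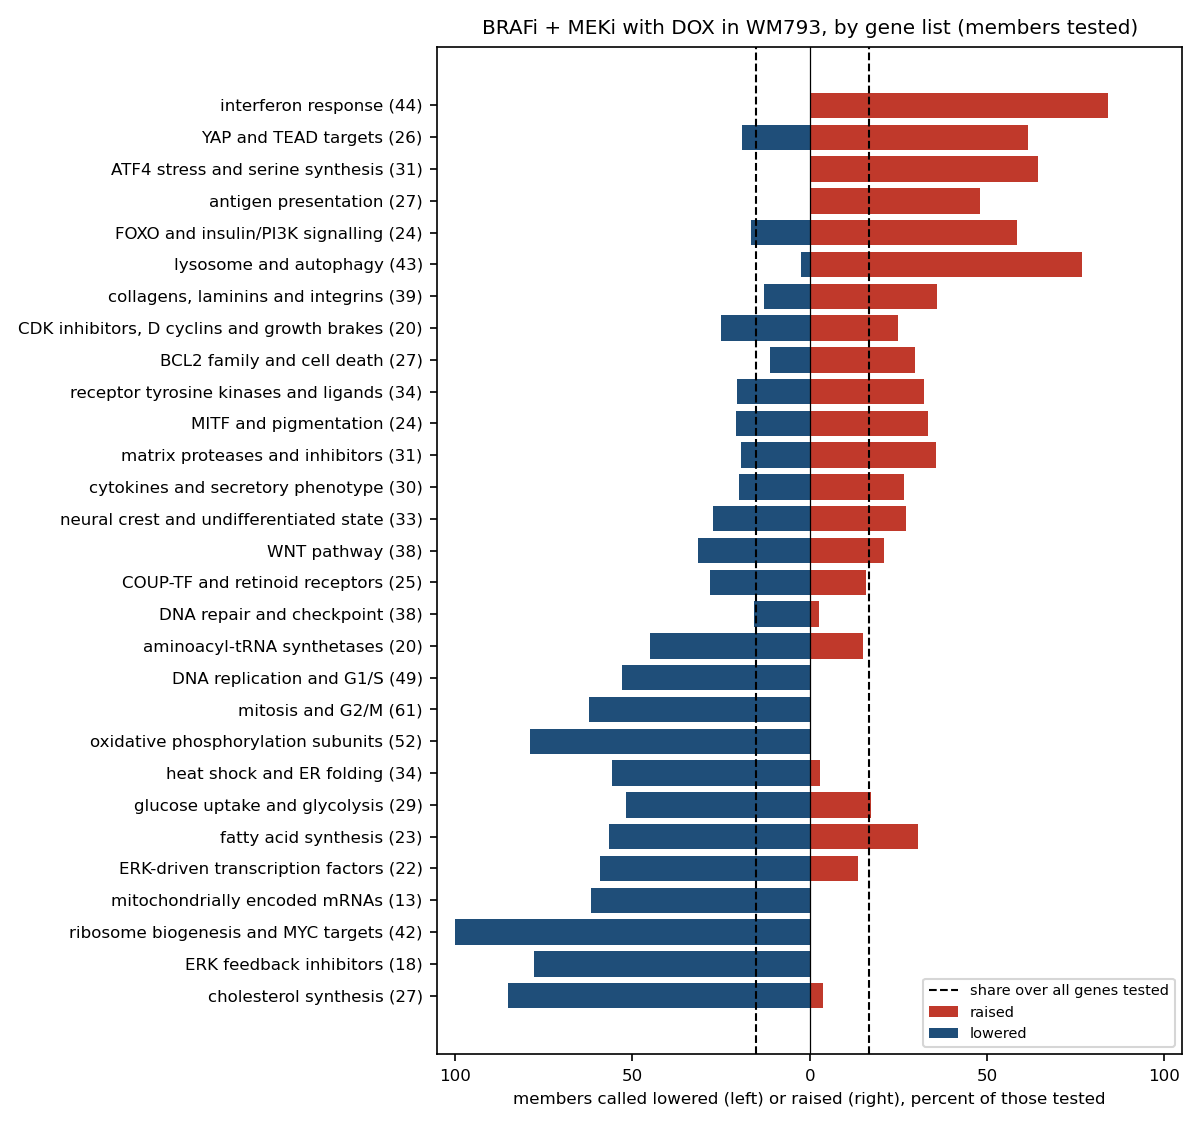
Share of tested members called raised (red, right) or lowered (blue, left) by BRAFi + MEKi with DOX in WM793, in percent, for 29 gene lists ordered by their median log2 fold change, with the number of members tested in brackets. The dashed lines mark the 16.7% and 15.1% called over all genes, and cholesterol synthesis and ribosome biogenesis sit at the lowered end while the interferon response sits at the raised end.

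ERK output was lowered with NR2F1 induced. Of 18 feedback inhibitors of the pathway, 14 were lowered (77.8%, against 15.1% of all genes) and 0 were raised (against 16.7%). Their median log2 fold change was -1.33. SPRY4, a Sprouty protein that dampens receptor signaling to RAS (chr5:142310427-142326455), was 31112, 25059.7 and 26846 with DMSO + DOX and 1170.4, 526 and 621 with BRAFi + MEKi + DOX. Treated libraries were lower by more than an order of magnitude, with a log2 change of -5.24 (adjusted p = 7.8e-08, SE 0.29). DUSP6, the phosphatase of ERK itself, was 4175, 3769.9 and 3406 with DMSO + DOX and 1693, 871 and 929.6 with BRAFi + MEKi + DOX, a log2 change of -1.76 (adjusted p = 0.00033, SE 0.28). ERRFI1, an inhibitor of EGFR, and IER3 fell by 3.54 and 2.63 on the log2 scale. The members that did not pass were SPRED3 (-0.82), DUSP7 (-0.35), NF1 (0.05) and LZTR1 (0.16), and LZTR1 was called raised after rescaling.

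Of 22 transcription factors downstream of ERK, 13 were lowered (59.1%, against 15.1% of all genes) and 3 were raised (13.6%, against 16.7%). EGR1, an immediate-early zinc finger factor, was 642, 348 and 294 with DMSO + DOX and 7.86, 5.97 and 5.79 with BRAFi + MEKi + DOX, and EGR3 was 2800.2, 1694 and 1938 with DMSO + DOX and 44.6, 19.8 and 30.03 with BRAFi + MEKi + DOX. Treated libraries were more than an order of magnitude below the controls for both, with log2 changes of -5.76 (adjusted p = 7.9e-06, SE 0.59) and -6.09 (adjusted p = 9.7e-08, SE 0.35). The ETS factors ETV4 (-3.34), ETV1 (-2.48) and ETV5 (-1.3) were lowered, and ETV5 was 4161, 3546 and 4099.8 with DMSO + DOX and 2194, 1275 and 1433 with BRAFi + MEKi + DOX. MYC was 2495, 1715 and 1551 with DMSO + DOX and 966, 863 and 868 with BRAFi + MEKi + DOX, with a log2 change of -1.06 (adjusted p = 0.00033, SE 0.17). In contrast, JUN, the AP-1 subunit, was 239, 349.7 and 308 with DMSO + DOX and 1519, 4927 and 4709.7 with BRAFi + MEKi + DOX. All 3 treated libraries were above the controls, and the log2 fold change was 3.47 (adjusted p = 7.9e-05, SE 0.47). ATF3, a stress-induced factor, and ETS1 were also raised, by 3.2 and 1.91, whereas FOSL1 (-0.03, adjusted p = 0.99, SE 0.59) and JUNB (-0.21, adjusted p = 0.76, SE 0.43) did not pass.

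**Figure D2:**
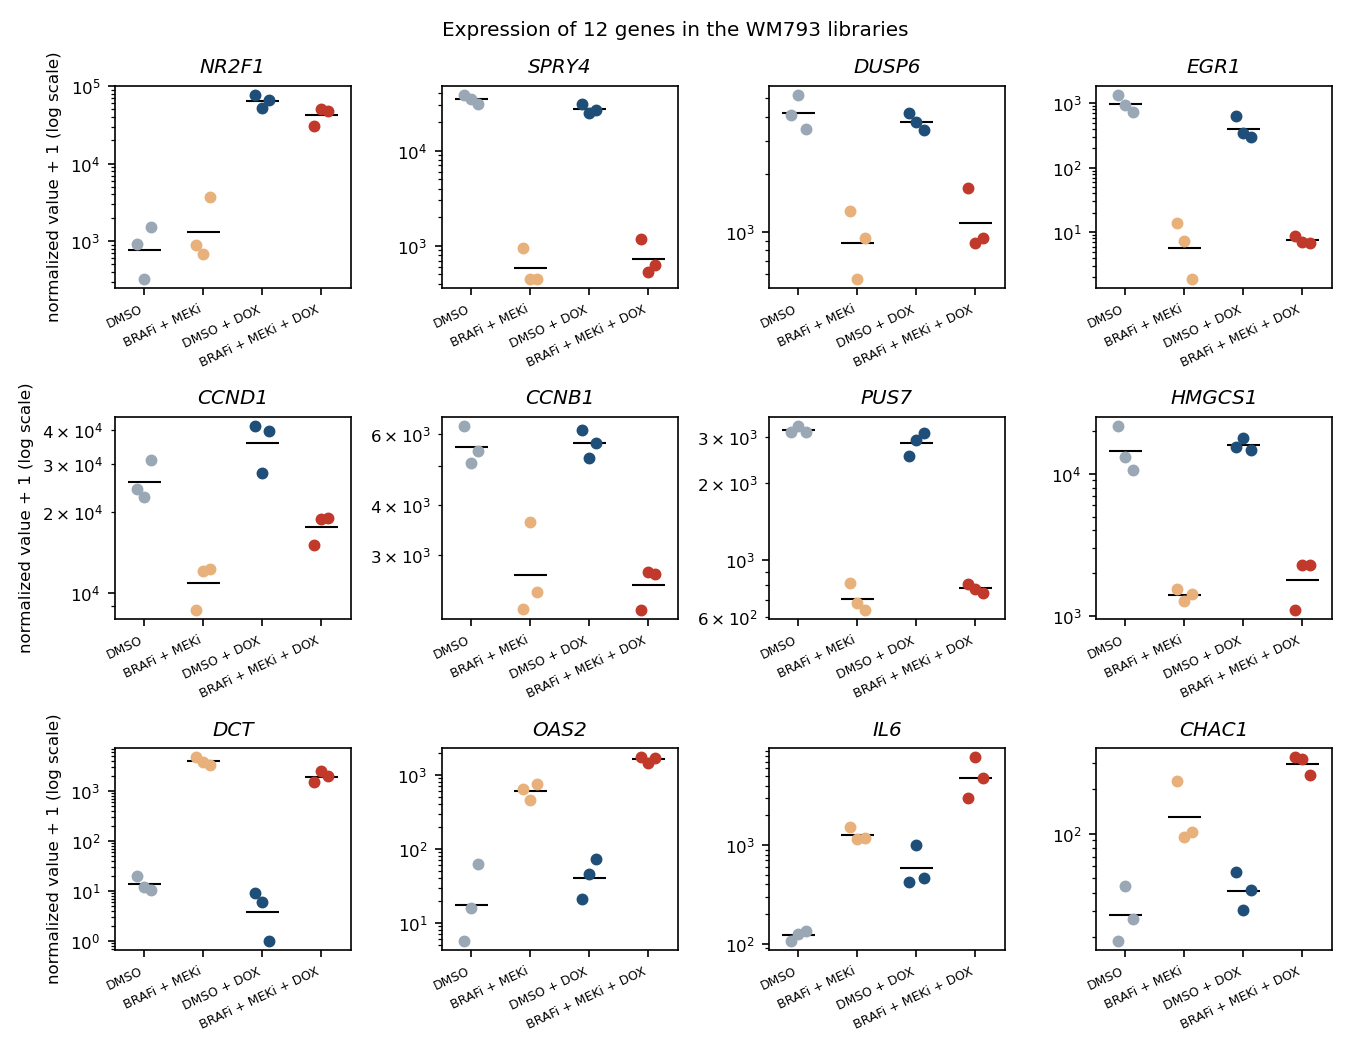
Normalized value plus 1 on a log axis for 12 genes in the 12 WM793 libraries, 3 per group; points are libraries and bars are geometric means. In the groups with DOX, SPRY4, DUSP6, EGR1, CCND1, CCNB1, PUS7 and HMGCS1 are lower in all 3 treated libraries, and DCT, OAS2, IL6 and CHAC1 are higher in all 3.

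Many but not all cell-cycle transcripts fell, by modest amounts. Of 49 DNA replication and G1/S genes, 26 were lowered (53.1%, against 15.1% of all genes), with a median log2 fold change of -0.43. Of 61 mitotic genes, 38 were lowered (62.3%), with a median of -0.47. In each list 0 were raised (against 16.7% of all genes) and 23 did not pass. CCND1, the D-type cyclin that ERK sustains, was 41313, 27822 and 39700.1 with DMSO + DOX and 15066, 18772 and 18979 with BRAFi + MEKi + DOX, with a log2 change of -1.03 (adjusted p = 0.00073, SE 0.18). CDK6, its kinase partner, was 12055, 13521 and 13579 with DMSO + DOX and 4302, 6514 and 6014 with BRAFi + MEKi + DOX, and it fell by 1.24 on the log2 scale. Treated libraries of both genes lay below all controls. CDC25A, the phosphatase that opens the G1/S transition (-1.03), the origin subunit ORC1 (-0.92) and the helicase subunit MCM7 (-0.89) led the replication genes, while PCNA (-0.24, adjusted p = 0.095, SE 0.11) and E2F1 (-0.13) did not pass. PLK1, a mitotic kinase, was 2938, 2386 and 2795 with DMSO + DOX and 816, 1442 and 1305 with BRAFi + MEKi + DOX. CCNB1, the mitotic cyclin, was 6139, 5233 and 5702 with DMSO + DOX and 2192, 2732 and 2695 with BRAFi + MEKi + DOX. For both, the 3 treated libraries were the lowest, with log2 changes of -1.22 (adjusted p = 0.0017, SE 0.25) and -1.17 (adjusted p = 0.00012, SE 0.17). MKI67, a proliferation marker, kept most of its level, at 9618, 9965 and 11622 with DMSO + DOX and 6342, 7828 and 8046 with BRAFi + MEKi + DOX, a log2 change of -0.49 (adjusted p = 0.013, SE 0.14). After rescaling, 19 replication genes (median -0.26) and 25 mitotic genes (median -0.30) were lowered and 0 were raised.

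Brakes of the cycle did not move together. Of 20 CDK inhibitors, D cyclins and growth brakes, 5 were raised and 5 lowered (25% each, against 16.7% and 15.1% of all genes). TXNIP, an arrestin-like protein that restrains glucose uptake, was 81.7, 161 and 258 with DMSO + DOX and 3979.6, 9794 and 8803 with BRAFi + MEKi + DOX, a log2 change of 5.53 (adjusted p = 3.8e-07, SE 0.38). BTG2, an antiproliferative factor, rose by 1.25. CDKN2B, the inhibitor of CDK4 and CDK6, was 2224, 669 and 709.8 with DMSO + DOX and 78.5, 309 and 144 with BRAFi + MEKi + DOX and thus lower with drug, with a log2 change of -2.74 (adjusted p = 0.0015, SE 0.54). CDKN1A (p21) was 2421, 1922 and 1890.0 with DMSO + DOX and 1759, 5663 and 3926 with BRAFi + MEKi + DOX, with groups that overlapped and a log2 change of 0.72 (adjusted p = 0.099, SE 0.31). CDKN1B (p27) had a log2 change of 0.38 (adjusted p = 0.1, SE 0.17). GADD45A was raised (1.84, adjusted p = 0.013, SE 0.51) although its groups overlapped, and the call was lost on leaving out treated replicate 2 (adjusted p = 0.073) or 3 (0.062). With rescaling or array weights, 9 genes of this list were raised.

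All 42 ribosome biogenesis genes tested, many of them known MYC targets, were lowered (against 15.1% of all genes), with a median log2 fold change of -1.1. PUS7, a pseudouridine synthase, was 2544, 2919 and 3125 with DMSO + DOX and 806, 772 and 746 with BRAFi + MEKi + DOX. Treated libraries differed by less than 100 units among themselves and were far below the controls, with a log2 change of -1.88 (adjusted p = 1.7e-07, SE 0.12). NOP16, a nucleolar protein, was 1986, 1922 and 1954 with DMSO + DOX and 603, 595 and 658 with BRAFi + MEKi + DOX and fell by 1.66 on the log2 scale. POLR1B, a subunit of RNA polymerase I, fell by 1.57. NPM1 (-1.47), the methyltransferase NOP2 (-1.42) and fibrillarin FBL (-1.38) were lowered as well. After rescaling, 41 of 42 were lowered.

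MYC binds the E-box CACGTG, which reads the same on both strands. RefSeq promoter windows (build GRCh38.p14), from 250 bases before to 50 after the start, were found for 32 of the 42 genes. The E-box was in 14 of the 32 (43.8%) and in 7.43% of 27305 windows of the same length. The windows of PUS7, NOP2 and FBL, 3 of the lowered genes with a match, are shown with the E-box in capitals. They let the sites be seen in place and are examples, not a ranking of all genes with a match.
PUS7, chr7:105522222-105522521, minus strand: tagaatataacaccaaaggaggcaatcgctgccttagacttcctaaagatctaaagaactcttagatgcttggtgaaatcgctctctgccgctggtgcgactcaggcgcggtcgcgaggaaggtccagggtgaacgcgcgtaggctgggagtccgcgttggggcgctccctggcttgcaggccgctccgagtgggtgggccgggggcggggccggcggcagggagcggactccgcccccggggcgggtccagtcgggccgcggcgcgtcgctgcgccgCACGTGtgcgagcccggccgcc
NOP2, chr12:6568242-6568541, minus strand: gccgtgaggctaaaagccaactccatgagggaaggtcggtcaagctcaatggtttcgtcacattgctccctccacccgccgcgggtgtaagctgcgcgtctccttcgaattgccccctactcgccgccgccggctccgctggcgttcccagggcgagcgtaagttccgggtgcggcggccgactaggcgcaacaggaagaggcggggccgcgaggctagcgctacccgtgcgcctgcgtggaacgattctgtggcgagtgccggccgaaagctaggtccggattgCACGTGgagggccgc
FBL, chr19:39846330-39846629, minus strand: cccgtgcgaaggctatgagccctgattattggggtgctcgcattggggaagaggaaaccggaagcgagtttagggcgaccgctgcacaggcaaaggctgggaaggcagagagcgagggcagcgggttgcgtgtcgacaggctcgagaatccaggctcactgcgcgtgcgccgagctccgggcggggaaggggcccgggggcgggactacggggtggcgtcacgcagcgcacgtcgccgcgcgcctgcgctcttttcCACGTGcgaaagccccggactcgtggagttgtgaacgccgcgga
A match is a description of these letters and was not measured as binding.

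Many genes of lipid synthesis and energy metabolism were lowered, and some were raised. Of 27 cholesterol genes, 23 were lowered (85.2%, against 15.1% of all genes) and 1 was raised (3.7%, against 16.7%). Their median log2 fold change was -1.42. HMGCS1, an early enzyme of the mevalonate pathway, was 15501, 17956 and 14769 with DMSO + DOX and 1091, 2270.4 and 2264 with BRAFi + MEKi + DOX. Replicate 1 was the lowest treated library, and all treated libraries were below the controls, with a log2 change of -3.17 (adjusted p = 1.8e-06, SE 0.27). SREBF2, the transcription factor of the pathway, fell by 0.97. The 1 member raised was ABCA1, which exports cholesterol (0.92). Of 23 genes of fatty acid synthesis, 13 were lowered (56.5%, against 15.1% of all genes) and 7 raised (30.4%, against 16.7%). FASN, the fatty acid synthase, was 34695, 38738 and 35997 with DMSO + DOX and 2929, 6334 and 6194 with BRAFi + MEKi + DOX, a log2 change of -2.91 (adjusted p = 2e-06, SE 0.25). The elongase ELOVL6 (-2.26) and the acetyl-CoA synthetase ACSS2 (-1.65) also fell, whereas the desaturase family member FADS3 (1.35), malic enzyme ME1 (0.76) and ACSL1 (0.75) rose. The number raised in this list was 4 without DMSO + DOX replicate 2, 3 without DMSO + DOX replicate 3, 3 without BRAFi + MEKi + DOX replicate 2 and 4 without its replicate 3.

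Of 29 genes of glucose uptake and glycolysis, 15 were lowered (51.7%, against 15.1% of all genes) and 5 raised (17.2%, near the 16.7% of all genes). GAPDH was 125462, 117100.0 and 115390.0 with DMSO + DOX and 38863, 33841 and 35556 with BRAFi + MEKi + DOX, a log2 change of -1.73 (adjusted p = 3.2e-07, SE 0.12). LDHA, which makes lactate, was 35629, 40098 and 32993 with DMSO + DOX and 13027, 12050.5 and 12580.4 with BRAFi + MEKi + DOX, a log2 change of -1.53 (adjusted p = 1.3e-05, SE 0.17). For both, each treated library was less than 40% of the lowest control. The glucose transporter SLC2A1 (-0.12) and hexokinase HK2 (-0.03) did not pass. ENO2, the neuronal enolase (0.88), and PDP1, a phosphatase that activates pyruvate dehydrogenase (1.78), rose. The number raised was 3 without DMSO + DOX replicate 3 or without BRAFi + MEKi + DOX replicate 1, and the call of PDK4 (1.8, adjusted p = 0.024, SE 0.56) was lost on leaving out any 1 of the control libraries or treated replicate 1 (adjusted p between 0.058 and 0.11).

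Of 52 nuclear-encoded subunits of oxidative phosphorylation, 41 were lowered (78.8%, against 15.1% of all genes) and 0 raised (against 16.7%), with a median of -0.58. NDUFB8, a subunit of complex I, was 8612, 10212 and 9772 with DMSO + DOX and 3195, 3779 and 3678 with BRAFi + MEKi + DOX, a log2 change of -1.42 (adjusted p = 6.4e-06, SE 0.14). UQCRC2 of complex III fell by 1.0 and ATP5F1B of the ATP synthase by 0.97. Of 13 mRNAs encoded by the mitochondrial genome, 8 were lowered (61.5%, against 15.1% of all genes) and 0 raised. MT-CO2, a subunit of cytochrome oxidase, was 217651, 212966 and 222395 with DMSO + DOX and 119797, 63756 and 88639.7 with BRAFi + MEKi + DOX, a log2 change of -1.31 (adjusted p = 0.001, SE 0.25). MT-ND5 was 26701, 28467 and 31399.7 with DMSO + DOX and 31502, 22972 and 30134 with BRAFi + MEKi + DOX, with overlapping groups (-0.04, adjusted p = 0.89, SE 0.18). Neighboring mitochondrial genes share reads where they overlap, which limits the reading of single members. After rescaling, 31 subunits and 8 mitochondrial mRNAs were lowered.

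Interferon-stimulated genes rose more than any other list by their median. Of 44 tested, 37 were raised (84.1%, against 16.7% of all genes) and 0 lowered (against 15.1%). The median log2 fold change was 2.39, against 0.12 over all genes. OAS2, an RNA-sensing synthetase that activates RNase L, was 19.8, 44.6 and 71.1 with DMSO + DOX and 1729.7, 1424 and 1700.4 with BRAFi + MEKi + DOX. Controls stayed under 100 and treated libraries were above 1400, with a log2 change of 5.3 (adjusted p = 3.8e-05, SE 0.65). MX1, an antiviral GTPase, was 134, 248 and 299 with DMSO + DOX and 2749.8, 3604 and 4552 with BRAFi + MEKi + DOX, a log2 change of 4.04 (adjusted p = 1e-05, SE 0.43). IFI44L was 0.336, 4.44 and 29.8 with DMSO + DOX and 251, 276 and 610.2 with BRAFi + MEKi + DOX, and XAF1, a proapoptotic interferon target, was 0.449, 0 and 9.24 with DMSO + DOX and 70.3, 133 and 262 with BRAFi + MEKi + DOX. Their controls were low and uneven, and all treated libraries were higher, with log2 changes of 5.85 (adjusted p = 0.0017, SE 1.17) and 5.79 (adjusted p = 0.00093, SE 1.07). IFI27, a mitochondrial protein induced by interferon, was 1.35, 9.78 and 8.3 with DMSO + DOX and 74.9, 251 and 685 with BRAFi + MEKi + DOX, a log2 change of 5.25 (adjusted p = 0.0011, SE 0.99). IRF9, a factor that carries the interferon signal, rose too and was 286, 293 and 405 with DMSO + DOX and 1738, 1774 and 1964 with BRAFi + MEKi + DOX. Its groups were apart, with a log2 change of 2.49 (adjusted p = 4.2e-07, SE 0.17). IRF7, which amplifies interferon production, rose by 3.98. IFIT5 (0.1), GBP2 (0.25), OASL (0.73), ISG20 (0.76), IFITM2 (0.82), TRIM22 (2.49) and BST2 (3.1) did not pass. TRIM22 was 53.1, 44.3 and 56.2 with DMSO + DOX and 173, 363 and 391 with BRAFi + MEKi + DOX, and its groups did not overlap, nor did those of IFITM2 and BST2.

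Interferon factors bind the interferon-stimulated response element, whose core was searched as AAANNGAAA on both strands. Windows were found for 34 of the 44 genes, and the core was in 26 of them (76.5%), against 10.6% of the 27305 windows. Of the 31 raised genes with a window, 23 held it, and so did all 3 of the members with a window that were not raised. IFI44L, XAF1 and IFI27, 3 of the raised genes with a match, are shown as examples with the core in capitals, and their values are given above.
IFI44L, chr1:78620198-78620497, plus strand: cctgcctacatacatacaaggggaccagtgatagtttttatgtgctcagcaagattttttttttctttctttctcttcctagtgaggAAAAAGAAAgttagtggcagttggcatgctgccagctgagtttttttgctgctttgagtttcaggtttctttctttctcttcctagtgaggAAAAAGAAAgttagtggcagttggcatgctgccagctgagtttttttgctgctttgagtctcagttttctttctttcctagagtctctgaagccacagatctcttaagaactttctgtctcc
XAF1, chr17:6755796-6756095, plus strand: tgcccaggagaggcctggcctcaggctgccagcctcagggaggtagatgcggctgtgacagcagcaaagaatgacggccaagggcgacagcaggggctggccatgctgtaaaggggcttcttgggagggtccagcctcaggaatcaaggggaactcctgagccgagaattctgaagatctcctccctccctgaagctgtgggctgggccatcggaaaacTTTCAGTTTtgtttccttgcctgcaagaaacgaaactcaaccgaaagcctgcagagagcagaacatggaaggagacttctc
IFI27, chr14:94110486-94110785, plus strand: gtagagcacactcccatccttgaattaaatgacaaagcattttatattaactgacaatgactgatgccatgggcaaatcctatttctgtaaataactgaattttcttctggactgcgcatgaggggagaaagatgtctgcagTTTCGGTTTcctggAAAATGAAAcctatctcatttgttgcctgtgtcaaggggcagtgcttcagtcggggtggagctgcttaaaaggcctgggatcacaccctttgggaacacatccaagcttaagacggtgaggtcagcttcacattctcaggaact
The IFI44L and IFI27 windows hold 2 matches each.

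Part of the antigen presentation list moved in the same direction. Of 27 genes, 13 were raised (48.1%, against 16.7% of all genes), 0 were lowered (against 15.1%) and 14 did not pass. HLA-B, a class I heavy chain, was 3031, 2649.8 and 3355 with DMSO + DOX and 17622, 17692 and 24535 with BRAFi + MEKi + DOX, a log2 change of 2.72 (adjusted p = 4.2e-06, SE 0.26). B2M, the light chain of class I, was 33079.5, 29369 and 32646 with DMSO + DOX and 65818, 64460.4 and 83723 with BRAFi + MEKi + DOX, a log2 change of 1.16 (adjusted p = 0.00021, SE 0.18). All treated libraries were above the controls for both. TAP1, the peptide transporter, rose by 1.22, and CIITA, the master factor of class II, by 2.65, whereas HLA-DRA (0.7, adjusted p = 0.18, SE 0.38) did not pass. HLA genes share near-identical sequence, and the estimated counts behind these values divide such reads among them.

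Many stress genes of the ATF4 pathway rose, and many heat shock and folding genes fell. Of 31 ATF4 targets and serine synthesis genes, 20 were raised (64.5%, against 16.7% of all genes), 0 were lowered (against 15.1%) and 11 did not pass. Their median was 0.84, and 1 was lowered without BRAFi + MEKi + DOX replicate 1 and 2 with array weights. ATF4 itself was 7342, 8566 and 7878 with DMSO + DOX and 14490.4, 13741 and 14294 with BRAFi + MEKi + DOX, a log2 change of 0.84 (adjusted p = 0.00029, SE 0.13). DDIT3 (CHOP), a factor of prolonged stress, was 682, 519.9 and 482 with DMSO + DOX and 2588, 3695 and 2577 with BRAFi + MEKi + DOX, a log2 change of 2.39 (adjusted p = 1.6e-06, SE 0.2). Groups were well apart for both. NUPR1, a stress-induced chromatin protein, was 2.06, 0.271 and 0 with DMSO + DOX and 79.9, 190.3 and 201 with BRAFi + MEKi + DOX, a log2 change of 6.54 (adjusted p = 1.1e-05, SE 0.7). CHAC1, which degrades glutathione, was 54, 29.7 and 40.5 with DMSO + DOX and 327, 319 and 249 with BRAFi + MEKi + DOX, a log2 change of 2.85 (adjusted p = 0.00013, SE 0.41). STC2, a secreted glycoprotein, rose by 3.59 and ASNS, asparagine synthetase, by 1.43. The serine synthesis enzymes PHGDH (0.08) and PSPH (-0.23) did not pass, and PSAT1 (0.45, adjusted p = 0.026, SE 0.14) did. ATF4 binds a composite site with C/EBP factors, searched as TGATGNAA on both strands, which was in 4 of 25 windows of the list (16%) and in 3.67% of all windows. The CHAC1 window is shown with its match in capitals.
CHAC1, chr15:40953221-40953520, plus strand: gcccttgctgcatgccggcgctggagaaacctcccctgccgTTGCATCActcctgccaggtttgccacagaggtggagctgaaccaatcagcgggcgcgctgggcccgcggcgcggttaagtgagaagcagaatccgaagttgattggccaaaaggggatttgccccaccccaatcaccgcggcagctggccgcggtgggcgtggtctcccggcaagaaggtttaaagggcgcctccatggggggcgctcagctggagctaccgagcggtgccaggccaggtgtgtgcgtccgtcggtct
A further 3 motifs were searched on both strands in the lists they are known for. The sterol regulatory element TCACNCCAC was in 1 of 20 cholesterol windows (5%, against 1.15% of all windows). The CLEAR core TCACGTGA of lysosome genes, which contains the E-box, was in 4 of 29 lysosome windows (13.8%, against 1.04%), and the ETS site CCGGAAG in 1 of 13 feedback inhibitor windows (7.69%, against 10.7%).

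Of 43 lysosome and autophagy genes, 33 were raised (76.7%, against 16.7% of all genes), and BECN1 (-0.38) was the 1 lowered (2.3%, against 15.1%). CTSD, the lysosomal aspartic protease, was 4507, 5891 and 5885 with DMSO + DOX and 17151, 19599.5 and 18138 with BRAFi + MEKi + DOX, a log2 change of 1.76 (adjusted p = 6.1e-06, SE 0.17). LAMP2, a membrane protein of the lysosome, was 5622, 7644 and 7606 with DMSO + DOX and 16975, 21834 and 21331 with BRAFi + MEKi + DOX, a log2 change of 1.53 (adjusted p = 4.6e-06, SE 0.15). Both were higher in all treated libraries by more than 2-fold. TFEB, the factor that drives lysosomal genes, had a log2 change of 1.44 (adjusted p = 0.012, SE 0.39), with an adjusted p of 0.052 without DMSO + DOX replicate 3 and 0.057 without BRAFi + MEKi + DOX replicate 3. The call of BECN1 was lost after rescaling (adjusted p = 0.17) and without DMSO + DOX replicate 2 or 3 or BRAFi + MEKi + DOX replicate 1 or 3 (adjusted p between 0.063 and 0.084). Of 34 heat shock and ER folding genes, 19 were lowered (55.9%, against 15.1% of all genes). SEL1L (1.07), part of the machinery that removes misfolded ER proteins, was the 1 raised (2.9%, against 16.7%). The number raised was 2 without DMSO + DOX replicate 1, after rescaling and with array weights, and 4 with the replicate number as a block. HSPA8, the constitutive HSP70, was 158764, 128948 and 135507 with DMSO + DOX and 47228, 38448 and 43424 with BRAFi + MEKi + DOX, a log2 change of -1.71 (adjusted p = 0.00016, SE 0.25). The mitochondrial chaperonin HSPD1 fell by 1.53 and CCT3 of the cytosolic chaperonin by 1.41, whereas the ER chaperone HSPA5 (-0.15) did not pass.

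Lineage genes split between rises and falls. DCT, the dopachrome tautomerase of melanin synthesis (chr13:94436811-94479682), had the largest rise of all named genes. It was 8.27, 5.01 and 0 with DMSO + DOX and 1518, 2467 and 1981 with BRAFi + MEKi + DOX, and its log2 fold change was 9.0 (adjusted p = 3.2e-07, SE 0.61). Of 24 pigmentation genes, 8 were raised (33.3%, against 16.7% of all genes) and 5 lowered (20.8%, against 15.1%). CAPN3, a calpain expressed in melanocytes, was 15.6, 0.764 and 20.2 with DMSO + DOX and 210.4, 408 and 236 with BRAFi + MEKi + DOX, a log2 change of 5.01 (adjusted p = 0.0004, SE 0.82). TYRP1, the partner enzyme of DCT, was 0.614, 0 and 0 with DMSO + DOX and 11.1, 3.84 and 14.2 with BRAFi + MEKi + DOX, which was low in each library. MITF, the factor of the pigment program, was 628, 269 and 622 with DMSO + DOX and 780.1, 418 and 480.4 with BRAFi + MEKi + DOX, with overlapping groups and a log2 change of 0.19 (adjusted p = 0.74, SE 0.37). MREG, a melanosome transport protein (-2.13), the melanosome receptor GPR143 (-1.79), the transporter OCA2 (-3.15) and the melanocortin receptor MC1R (-0.88) were lowered.

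Of 33 genes of the neural crest and undifferentiated state, 9 were raised and 9 lowered (27.3% each, against 16.7% and 15.1% of all genes). NGFR, the neurotrophin receptor that marks the neural crest-like state, was 135, 157 and 197 with DMSO + DOX and 451, 6866 and 3151 with BRAFi + MEKi + DOX. The treated libraries differed among themselves by more than an order of magnitude, with replicate 1 the lowest, yet all exceeded the controls, and the log2 fold change was 3.72 (adjusted p = 0.0032, SE 0.82). ZEB2, a factor of the melanocyte lineage, was 2855, 2580.1 and 2414 with DMSO + DOX and 7788, 12828 and 10527 with BRAFi + MEKi + DOX, a log2 change of 1.96 (adjusted p = 5.1e-06, SE 0.19), while its relative ZEB1 (-1.1) was lowered. S100A4, a calcium-binding protein tied to motility, was 17847, 27467 and 22323 with DMSO + DOX and 1897, 2385 and 2149 with BRAFi + MEKi + DOX, a log2 change of -3.38 (adjusted p = 5.9e-08, SE 0.18). TWIST1, a mesenchymal factor, fell by 2.45, and the neural crest factors TFAP2C and TFAP2B fell by 1.86 and 2.86. The median of this list was -0.11, and it was 0.07 after rescaling, 0.22 with array weights and 0.24 without BRAFi + MEKi + DOX replicate 1. With array weights 14 were raised.

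Other genes among the largest rises included LRRC7, GRIN3A and SHISA9. LRRC7, a postsynaptic scaffold protein, was 1.13, 1.31 and 0 with DMSO + DOX and 445, 909 and 958 with BRAFi + MEKi + DOX, a log2 change of 8.75 (adjusted p = 4.7e-08, SE 0.45). GRIN3A, an NMDA receptor subunit, was 8.45, 1.24 and 2.43 with DMSO + DOX and 168, 490.1 and 463 with BRAFi + MEKi + DOX, a log2 change of 6.34 (adjusted p = 7.8e-06, SE 0.65). SHISA9, an auxiliary AMPA receptor protein, was 3.6, 37.2 and 16.8 with DMSO + DOX and 1136, 1099 and 1589 with BRAFi + MEKi + DOX, a log2 change of 6.42 (adjusted p = 0.00047, SE 1.08). For all 3, each treated library was above each control. LRRTM4, a synaptic adhesion protein, was listed at 0 in all 3 controls and at 205, 99.6 and 88.6 with BRAFi + MEKi + DOX, and CALHM5, a channel family member, was listed at 0 in controls and at 50.1, 98.4 and 61.8. XKR4, SEC14L5, OTOGL, the noncoding PKD1L1-AS1 and the small heat shock protein HSPB3 completed the largest rises, with log2 fold changes between 6.02 and 6.5.

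The largest falls included those of MYCN, SLIT1 and ANGPT1. MYCN, a MYC family member, was 5467, 4049 and 3980.1 with DMSO + DOX and 60.03, 19.1 and 23.3 with BRAFi + MEKi + DOX, a log2 change of -7.16 (adjusted p = 2.4e-08, SE 0.31). SLIT1, an axon guidance ligand, was 3382, 2358 and 2583 with DMSO + DOX and 47.8, 40.6 and 11.9 with BRAFi + MEKi + DOX, a log2 change of -6.53 (adjusted p = 3e-07, SE 0.44). ANGPT1, the ligand of the TIE2 receptor, was 1854, 537 and 755 with DMSO + DOX and 20.2, 6.19 and 13.8 with BRAFi + MEKi + DOX, a log2 change of -6.12 (adjusted p = 2.1e-06, SE 0.53). All controls of these genes were at least an order of magnitude above the treated libraries. CCDC149 was 410.0, 191 and 214 with DMSO + DOX and 0, 1.3 and 1.48 with BRAFi + MEKi + DOX, and HAPLN1, a link protein of the hyaluronan matrix, was 146, 281 and 177 with DMSO + DOX and 0, 1.89 and 0.278 with BRAFi + MEKi + DOX. Their treated libraries were at the floor of the scale. MYBPC1, a myosin-binding protein, was 56.6, 70.4 and 68 in controls and listed at 0 in all treated libraries. TRIM51 (-5.91), the hormone STC1 (-5.82), the collagen receptor subunit ITGA10 (-5.7) and the scavenger receptor SCARA5 (-5.62) were the other genes of this rank beside EGR1 and EGR3.

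Most but not all targets of YAP and TEAD rose, while YAP1 and its paralog fell. Of 26 genes of the list, which counts the paralog WWTR1 as a member, 16 were raised (61.5%, against 16.7% of all genes). A further 5 were lowered (19.2%, against 15.1%) and 5 did not pass. CCN2 (CTGF), a secreted matricellular target of YAP, was 484, 1829 and 896 with DMSO + DOX and 5274, 8948 and 6794 with BRAFi + MEKi + DOX, a log2 change of 2.89 (adjusted p = 0.0005, SE 0.49). CCN1 (CYR61) was 657, 1848 and 991 with DMSO + DOX and 6155, 8430.4 and 9352 with BRAFi + MEKi + DOX, a log2 change of 2.88 (adjusted p = 3.1e-05, SE 0.35). Treated libraries were above all controls for both. WWTR1 (TAZ) was 30908, 24358 and 26302 with DMSO + DOX and 9297, 7902 and 7610.0 with BRAFi + MEKi + DOX and fell by 1.72, YAP1 fell by 0.51 and IGFBP3 by 2.02.

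Of 39 collagens, laminins and integrins, 14 were raised (35.9%, against 16.7% of all genes) and 5 lowered (12.8%, against 15.1%). COL5A1, a fibrillar collagen chain, was 1396, 1699 and 1465 with DMSO + DOX and 5664, 11340.3 and 8952 with BRAFi + MEKi + DOX, a log2 change of 2.46 (adjusted p = 3.5e-05, SE 0.3). COL1A1 was 27.7, 47.9 and 22.7 with DMSO + DOX and 136, 319 and 209 with BRAFi + MEKi + DOX, a log2 change of 2.7 (adjusted p = 0.00098, SE 0.5), while COL1A2, its partner chain, was 38.5, 13.3 and 0.936 with DMSO + DOX and 0, 1.44 and 0.933 with BRAFi + MEKi + DOX, low values that overlapped, with a log2 change of -2.62 (adjusted p = 0.035, SE 0.87). ITGB3, the beta 3 integrin, was 20909, 22050.5 and 22548 with DMSO + DOX and 6346, 6712 and 6041 with BRAFi + MEKi + DOX, a log2 change of -1.78 (adjusted p = 5e-07, SE 0.13). LAMA4 fell by 1.92. Fibroblast markers were present in all 6 libraries: 7 of 8 averaged at least 30, their sum ranged from 8758 to 9478 in controls and from 9601 to 13165 in treated libraries, and THY1 (0.8) and PDGFRB (0.96) rose while FAP fell from 2826, 1668 and 1798 to 692, 848 and 684. The part of other cells in the matrix results was not tested, and DPT, a further fibroblast marker, was listed at 0 in 1 control and all treated libraries.

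Of 31 matrix proteases and inhibitors, 11 were raised (35.5%, against 16.7% of all genes) and 6 lowered (19.4%, against 15.1%). MMP1, the interstitial collagenase, was 59775, 48149.7 and 25705 with DMSO + DOX and 4629, 5799 and 9331 with BRAFi + MEKi + DOX, a log2 change of -2.74 (adjusted p = 8e-05, SE 0.37). MMP16, a membrane-bound protease, was 6275, 5321 and 6632 with DMSO + DOX and 538, 547 and 838 with BRAFi + MEKi + DOX, a log2 change of -3.27 (adjusted p = 6.1e-08, SE 0.18). MMP19 went the other way, at 7.03, 20.9 and 4.38 with DMSO + DOX and 123, 453 and 373 with BRAFi + MEKi + DOX, a log2 change of 4.81 (adjusted p = 4.1e-05, SE 0.6). The aggrecanase ADAMTS5 rose by 2.96, ADAM19 by 2.79 and the sheddase ADAM17 by 1.54.

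Of 30 cytokines and secretory genes, 8 were raised (26.7%, against 16.7% of all genes) and 6 lowered (20%, against 15.1%). IL6 was 419, 1003 and 459 with DMSO + DOX and 3025, 7768 and 4728 with BRAFi + MEKi + DOX, a log2 change of 3.05 (adjusted p = 1.5e-05, SE 0.33). CCL2, which attracts monocytes, was 1236, 2496 and 1915 with DMSO + DOX and 15543, 25756 and 28139 with BRAFi + MEKi + DOX, a log2 change of 3.63 (adjusted p = 1.1e-05, SE 0.39). IGFBP5, a binding protein of insulin-like growth factors, rose by 3.93, CSF1 by 2.35 and CXCL12 by 2.2. PTGS2, the inducible cyclooxygenase, was 10738, 2233 and 2497 with DMSO + DOX and 113, 131 and 69.8 with BRAFi + MEKi + DOX, a log2 change of -5.26 (adjusted p = 3.8e-05, SE 0.65). CCL20, a chemokine of the NF-kB pathway, was 131, 100.3 and 78.2 with DMSO + DOX and 8.23, 0.644 and 9.74 with BRAFi + MEKi + DOX, a log2 change of -4.22 (adjusted p = 0.00051, SE 0.72). The neutrophil chemokine CXCL8 (-0.31) and CXCL10 (-0.15), an interferon-induced chemokine, did not pass. With the replicate number as a block, 10 genes of the list were lowered.

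Of 34 receptor tyrosine kinases and ligands, 11 were raised (32.4%, against 16.7% of all genes) and 7 lowered (20.6%, against 15.1%). NTRK2, the BDNF receptor, was 5.75, 26.9 and 10.6 with DMSO + DOX and 219, 157 and 212 with BRAFi + MEKi + DOX, a log2 change of 3.91 (adjusted p = 2.6e-05, SE 0.46). AXL, a receptor of the undifferentiated state, was 1784, 3409 and 2647 with DMSO + DOX and 5274, 6893 and 7814 with BRAFi + MEKi + DOX, a log2 change of 1.38 (adjusted p = 0.0022, SE 0.29). MET, the HGF receptor, was 398, 337 and 337 with DMSO + DOX and 74.8, 80.5 and 199 with BRAFi + MEKi + DOX and fell by 1.74, PDGFRA fell by 1.46 and the ephrin receptor EPHA3 by 3.67, while EGFR (-0.2, adjusted p = 0.2, SE 0.11) did not pass. KDR, the VEGF receptor, rose by 2.15, from 117, 183 and 143 to 369, 888 and 826, and the endothelial markers CDH5 and PECAM1 were listed at 0 or below 1 in every library. VWF, the other endothelial marker listed, was 0, 1.31 and 0 with DMSO + DOX and 0.846, 2.29 and 3.88 with BRAFi + MEKi + DOX (log2 change 1.23, adjusted p = 0.23).

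Insulin and FOXO pathway genes mostly rose, with 14 of 24 raised (58.3%, against 16.7% of all genes) and 4 lowered (near the share of all genes, 16.7% against 15.1%). IRS2, the insulin receptor substrate, was 619, 506 and 531 with DMSO + DOX and 2530.4, 2780.1 and 2665 with BRAFi + MEKi + DOX, a log2 change of 2.27 (adjusted p = 2e-07, SE 0.14). PIK3IP1, an inhibitor of PI3K, was 22.7, 42.1 and 33.2 with DMSO + DOX and 439.9, 1089.5 and 539 with BRAFi + MEKi + DOX, a log2 change of 4.29 (adjusted p = 4.9e-06, SE 0.41). DDIT4, an mTORC1 inhibitor, was 14484, 7762 and 9001 with DMSO + DOX and 2892, 3214 and 2290.3 with BRAFi + MEKi + DOX and fell by 1.86. The number lowered was 2 after rescaling and without DMSO + DOX replicate 3. Of 27 genes of the BCL2 family and cell death, 8 were raised (29.6%, against 16.7% of all genes) and 3 lowered (11.1%, against 15.1%), and 14 were raised after rescaling and 13 with array weights. BMF, a BH3-only activator of death, was 322, 179 and 419.8 with DMSO + DOX and 2121, 1846 and 1695 with BRAFi + MEKi + DOX, a log2 change of 2.7 (adjusted p = 6.3e-06, SE 0.27). BCL2, the survival protein, rose by 1.04, and BIRC3, an inhibitor of apoptosis, by 3.05. PMAIP1 (NOXA) was 2204, 1832 and 1887 with DMSO + DOX and 507, 635 and 792 with BRAFi + MEKi + DOX and fell by 1.63. BCL2L11 (BIM) had a log2 fold change of -0.1 and did not pass.

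Of 38 WNT pathway genes, 12 were lowered (31.6%, against 15.1% of all genes) and 8 raised (21.1%, against 16.7%), and the number raised was 5 without BRAFi + MEKi + DOX replicate 3. The receptors FZD1 and FZD7 fell by 2.19 and 2.15, and SFRP1, a secreted antagonist, was 42012, 53439 and 47987 with DMSO + DOX and 12556, 7445 and 8208 with BRAFi + MEKi + DOX, a log2 change of -2.38 (adjusted p = 4.4e-07, SE 0.17). DKK3, of the Dickkopf family, was 6014, 7242 and 8116 with DMSO + DOX and 32929, 35269.8 and 35991 with BRAFi + MEKi + DOX, a log2 change of 2.3 (adjusted p = 1.9e-07, SE 0.14). The median of the list was -0.14 and was 0.03 after rescaling. Of 25 COUP-TF and retinoid receptor genes, 7 were lowered (28%, against 15.1% of all genes) and 4 raised (16%, near the 16.7% of all genes), and 2 were raised without DMSO + DOX replicate 2 or without BRAFi + MEKi + DOX replicate 1. TGM2, a transglutaminase induced by retinoic acid, was 6451, 6862 and 7055 with DMSO + DOX and 898, 1370.2 and 1689 with BRAFi + MEKi + DOX, a log2 change of -2.41 (adjusted p = 2.2e-05, SE 0.28). CRABP2, a carrier of retinoic acid, fell by 1.61. RARB, a retinoid receptor, was 620.2, 247 and 227 with DMSO + DOX and 363, 468 and 451 with BRAFi + MEKi + DOX, with groups that overlapped (0.38, adjusted p = 0.41, SE 0.32). Its list had a median of -0.15, which was 0.00 after rescaling. On leaving out 1 library it ranged from -0.33 (without BRAFi + MEKi + DOX replicate 3) to -0.09 (without DMSO + DOX replicate 1).

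The response with DOX resembled the response without DOX. In the libraries without DOX, 4512 genes were raised (20.4%) and 3724 lowered (16.9%) among the same 22074. Raised in both were 2917 genes, which is 79.2% of those raised with DOX and 64.6% of those raised without. Lowered in both were 2838, which is 85.4% and 76.2%, respectively. The sign was the same in 98.4% of the 7008 genes called with DOX. The only gene called in opposite directions was LINC02997, a low noncoding transcript named here after its values were seen, with a log2 fold change of -2.15 with DOX and 2.04 without. Across 13739 genes with a mean of at least 30, log2 fold changes correlated with r = 0.917. The comparisons use separate libraries but share a cell line and a scaling.

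**Figure D3:**
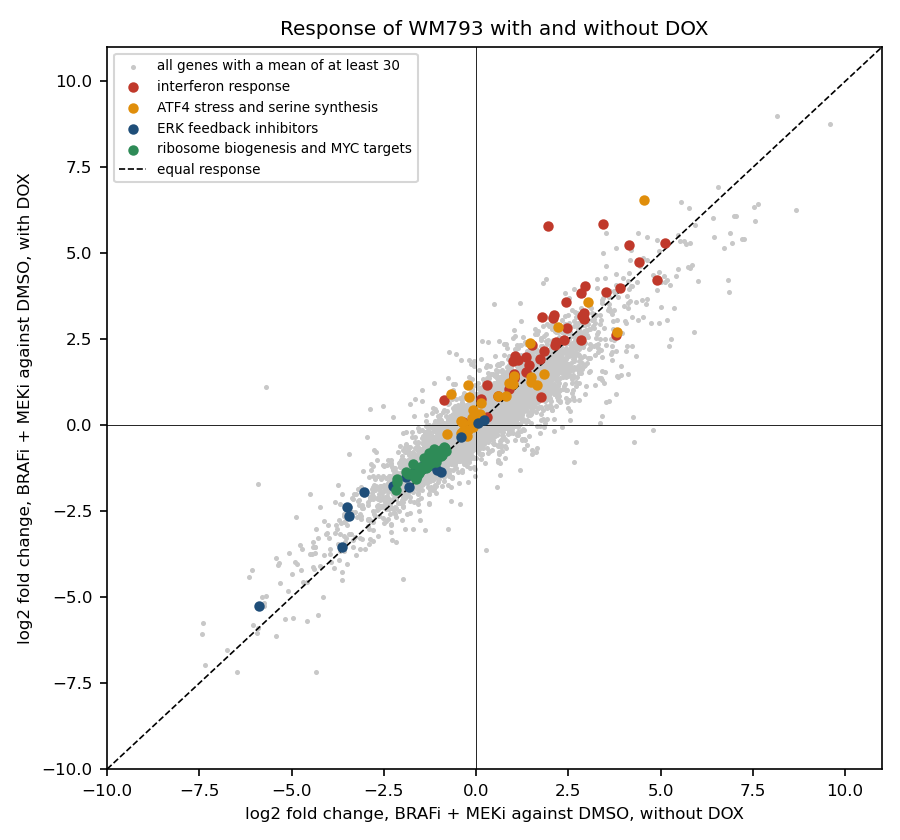
Log2 fold change of each gene by BRAFi + MEKi in WM793 with DOX (vertical) against that without DOX (horizontal), for 13739 genes with a mean of at least 30 and the members of 4 lists; the dashed line marks equal responses. Most points lie near the line (r = 0.917).

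The difference between both responses was tested gene by gene with an interaction term. No gene was called by limma in either direction (0.0% of 22074, smallest adjusted p = 0.29), while 1262 genes (5.72%) had an unadjusted p under 0.05. With array weights, 28 genes had a response that was higher with DOX and 15 one that was lower. IFIT3, an interferon-induced protein, was 536, 451 and 475 with DMSO + DOX and 3574, 4833 and 4720.4 with BRAFi + MEKi + DOX. Without DOX it was 941, 684 and 709 with DMSO and 2146, 3071 and 2789 with BRAFi + MEKi, and the difference of log2 fold changes was 1.38 (SE 0.24, unadjusted p = 5.7e-05, adjusted p = 0.29). SOD1, a superoxide dismutase, fell by 0.61 with DOX and by 1.3 without. CTNNAL1, an alpha-catenin relative, rose by 0.99 and 2.18, and CABLES1, a CDK-binding protein, by 0.76 and 1.74. CEMIP, a hyaluronan-binding protein, was 13254, 12459 and 9393 with DMSO + DOX and 13073, 16162 and 19509.9 with BRAFi + MEKi + DOX, with no call. Without DOX it was 28862, 17879 and 12943 with DMSO and 1367, 1952 and 6399 with BRAFi + MEKi, a log2 fold change of -2.87 (adjusted p = 0.00016). DGKD, a diacylglycerol kinase, had -0.14 with DOX and -1.46 (adjusted p = 1.5e-05) without. These 6 had the smallest p of the difference among genes with a mean of at least 30. Their adjusted p was under 0.05 with array weights, and for CEMIP also without BRAFi + MEKi replicate 3 (0.0061).

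By list, the median log2 fold change with and without DOX was 2.39 and 1.90 for the interferon response and -1.10 and -1.33 for ribosome biogenesis. It was -0.43 and -0.24 for DNA replication and -0.47 and -0.28 for mitosis. Other lists differed too, with -0.04 and -0.60 for cytokines and -0.76 and -1.26 for ERK-driven transcription factors. Aminoacyl-tRNA synthetases had -0.32 and -0.62, while oxidative phosphorylation subunits had -0.58 in both. For ATF4 stress genes the median was 0.84 and 0.11, where 20 were raised with DOX and 14 raised and 2 lowered without it. A gap between 2 medians is not the change of a typical member. The median of the gene-by-gene differences was 0.35 for interferon genes, 0.24 for ribosome biogenesis, -0.16 for replication and -0.27 for mitosis. It was 0.25 for ATF4 stress genes. TRIB3, a pseudokinase of that pathway, was 920.5, 911 and 848 with DMSO + DOX and 1229, 2919 and 2201 with BRAFi + MEKi + DOX. Without DOX it was 1035, 1141 and 898 with DMSO and 933, 851 and 857 with BRAFi + MEKi, a log2 fold change of -0.21 (adjusted p = 0.5). Leaving out BRAFi + MEKi + DOX replicate 1 gave TRIB3 a difference of 1.72 with an adjusted p of 0.036. Members with an unadjusted p of the difference under 0.05 were 10 of 44 interferon genes, 8 of 42 ribosome biogenesis genes and 5 of 49 replication genes. They were also 12 of 61 mitotic genes and 8 of 31 ATF4 genes. Over all genes this share was 5.72%, and the number was 0 of 52 oxidative phosphorylation subunits and 0 of 13 mitochondrial mRNAs. After adjustment in limma, 0 passed.

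The other lines address whether this response is shared by NR2F1-high melanoma cells. With DOX, BRAFi + MEKi raised 4040 genes in 1205Lu (15.1% of 26779) and lowered 3511 (13.1%), and raised 3559 in A375 (13.3%) and lowered 3526 (13.2%). Of the genes raised in WM793, 43.4% were raised in 1205Lu and 32.7% in A375, which is 39.6% and 33.8% of those raised in these lines. Of the genes lowered in WM793, 51.0% and 41.9% were lowered, which is 48.2% and 39.5%. Raised in all 3 lines were 793 genes, and lowered in all 3 were 1028. The response of WM793 was higher than that of 1205Lu for 1795 genes (6.7%) and lower for 1493 (5.58%), and against A375 it was higher for 2313 (8.64%) and lower for 1986 (7.42%).

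**Figure D4:**
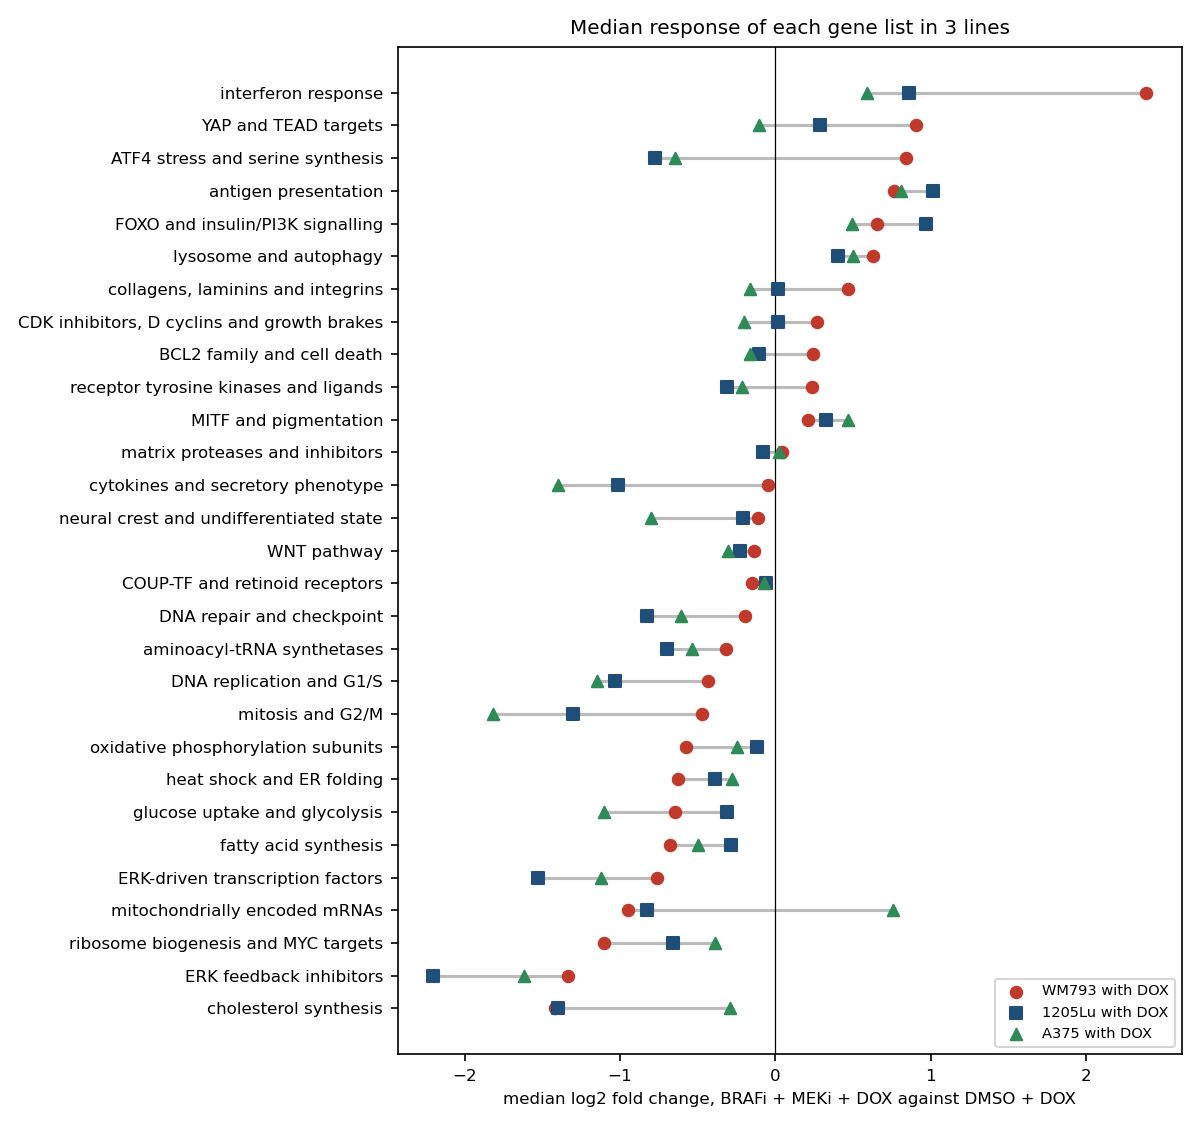
Median log2 fold change by BRAFi + MEKi with DOX for each of 29 gene lists in WM793 (circles), 1205Lu (squares) and A375 (triangles). WM793 has the highest median for the interferon response and ATF4 stress genes and the smallest fall for mitotic genes, while its ribosome biogenesis genes fall furthest.

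The median of the interferon list was 0.86 in 1205Lu, with 18 raised and 1 lowered, and 0.59 in A375, with 14 raised and 1 lowered. Over all genes, 15.1% and 13.3% were raised in these lines. The difference was called higher in WM793 for 20 of 44 genes and lower for 3 against 1205Lu, and higher for 23 and lower for 0 against A375. OAS2 had log2 fold changes of 5.3 in WM793, 0.42 (adjusted p = 0.73) in 1205Lu and 0.56 (adjusted p = 0.57) in A375, and both differences passed (adjusted p = 0.00025 and 0.00026). ATF4 stress genes moved in opposite directions by their medians, 0.84 in WM793 against -0.77 in 1205Lu and -0.65 in A375. The difference was higher in WM793 for 21 of 31 against 1205Lu and for 19 against A375, and lower for 1 in each. STC2 had 3.59 in WM793, -0.82 (adjusted p = 0.19) in 1205Lu and -1.88 (adjusted p = 0.0019) in A375.

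Mitotic genes were lowered in 59 of 61 cases in 1205Lu (median -1.30) and in 60 in A375 (median -1.82), against 13.1% and 13.2% of all genes. The response was higher in WM793 for 10 against 1205Lu and 40 against A375, and lower for 1 and 0. PLK1 fell by 1.22 in WM793, 1.43 in 1205Lu and 2.74 in A375, with an adjusted p of the difference of 0.86 and 0.0096. Of 42 ribosome biogenesis genes, 17 were lower in WM793 than in 1205Lu and 29 were lower than in A375, and 0 were higher. Of 52 oxidative phosphorylation subunits, 17 were lower than in 1205Lu and 17, counted separately, were lower than in A375. Of 13 mitochondrial mRNAs, 12 were lower than in A375, where 6 were raised (median 0.76), and 0 were lower than in 1205Lu. Cholesterol genes had medians of -1.42 in WM793, -1.40 in 1205Lu and -0.29 in A375, and 15 of 27 were lower in WM793 than in A375.

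ERK output fell in all 3 lines. Feedback inhibitors were lowered for 16 of 18 in 1205Lu and 14 in A375, against 13.1% and 13.2% of all genes, and LZTR1 was raised in both. SPRY4 had log2 fold changes of -5.24 in WM793, -7.16 (adjusted p = 8.7e-16) in 1205Lu and -4.55 (adjusted p = 1.2e-11) in A375, and its fall in WM793 was smaller than in 1205Lu (adjusted p = 0.0044). ETV4 fell by 3.34 in WM793, 7.17 in 1205Lu and 6.96 in A375, and both differences passed (adjusted p = 0.00023 and 0.00032). IL6 was raised in WM793 and had -0.47 (adjusted p = 0.71) in 1205Lu and -0.0048 (adjusted p = 1) in A375, again with differences that passed (adjusted p = 0.011 and 0.023). DCT rose in A375 as well, by 8.55 (adjusted p = 1e-05), and in 1205Lu by 4.37 (adjusted p = 0.012), and its differences did not pass.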

How the data were processed

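RNA-Seq libraries of 3 melanoma lines in 12 groups of 3 replicates (36 libraries) were read, and the 6 of WM793TR-NR2F1 with DOX were compared. The replicates are independent experiments per the study's methods. Per the submitters' notes, the authors used STAR, RSEM and DESeq2 with GRCh38 to align, quantify and normalize, and they deposited 1 normalized signal value for each of 60656 gene IDs. Since these signals are not counts, the moderated test of limma 3.58.1 in R 4.3.3, with its trend option, was run on log2(value + 1). Fold changes on this scale understate changes of low genes. Genes averaging 1 or more in any group were tested, over the 12 WM793 libraries (22074 genes) or, between lines, all 36 (26779 genes), with Benjamini-Hochberg adjustment at 0.05. The depth is known only as an estimate, which limits genes near 0. Tables and figures were made in Python 3.11.15 with pandas 2.3.3. The test was also run on simulated data, and the outcome is not reported here. Symbols and positions came from GENCODE 44, and promoter windows from RefSeq (GRCh38.p14).

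Named genes were NR2F1, DUSP6, SPRY4, ETV5 and CCND1, the 12 largest rises and falls with groups apart and a mean of at least 30, up to 3 rises and 3 falls per list, and up to 6 genes with the smallest p of each difference. Other list members were picked for their known role after values were seen. The libraries were taken by their labels, but the comparison to describe and the 29 lists were chosen with earlier results of these data known. Values of some single genes are not reported here. Alternatives are described in the closing section.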

Additional observations from a re-analysis of the deposited data

Results flagged for a closer look

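The drug response with DOX differed between cell lines for named genes, by the test of the difference itself in limma's fit of all 36 libraries. Against 1205Lu, the log2 response of WM793 was lower by a difference of -2.1 for NR2F1 (adjusted p = 0.045), where 1205Lu rose by 1.48. The fall of the feedback inhibitor SPRY4 was smaller by a difference of 1.92 and that of the ETS factor ETV5 by 3.81. DEPTOR, an inhibitor of mTOR, had a difference of -5.56, with -3.24 in WM793 and 2.32 in 1205Lu. MYCN had -8.39, with -7.16 and 1.22. The bHLH factor ATOH8 had -5.09, with -0.91 and 4.19, and ANGPT1 had -6.27, with -6.12 and 0.16. LPXN, a focal adhesion protein, had 5.18 and NT5E, the ectonucleotidase CD73, had 4.31: both fell in 1205Lu (-4.75 and -4.42) and were not called in WM793 (0.43 and -0.11).

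Against A375, the difference was 1.65 for ETV5 and 1.54 for CCND1, which both fell less in WM793. FLT1, a VEGF receptor, had -4.97, with 12940.2, 12889 and 12367 with DMSO + DOX and 1507, 2208 and 1973 with BRAFi + MEKi + DOX, a log2 fold change of -2.76 against 2.2 in A375. The kinase NEK6 had 2.65, with 2.28 against -0.37, and the matrix protein FREM2 had -4.96, with -2.89 against 2.07. ANGPT1 had -6.32, with 0.21 in A375. SERPINI1, a serpin of neurons, had -4.54, with -0.97 against 3.57, and MEF2C, a lineage transcription factor, had -2.97, with -0.13, not called, against 2.84. In WM793 itself, the calls of ATOH8 and SERPINI1 were lost after rescaling (adjusted p = 0.070 and 0.059), without DMSO + DOX replicate 1 (0.091 and 0.084) or 3 (0.055 and 0.051) and without BRAFi + MEKi + DOX replicate 3 (0.13 and 0.10). That of ATOH8 was also lost without DMSO + DOX replicate 2 (0.053), and that of SERPINI1 without BRAFi + MEKi + DOX replicate 2 (0.085).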

How the results depend on the processing

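Alternatives were a pseudocount of 0.1, no filter, a group mean of 10 or more, the replicate number as a block, libraries rescaled to the same total, array weights, only the 6 libraries compared, and leaving out each library in turn. Over 10 counts of called genes and 156 alternative values, 6 moved by over 1.5 times. On leaving out 1 library, 2825 to 3363 genes were raised and 2764 to 3148 lowered with DOX. With array weights, 5554 genes were raised with DOX, and the difference between responses with and without DOX was called for 28 genes as higher and 15 as lower, against 0. Leaving out 1 library gave 0 to 1 genes higher and 0 to 1 lower in that difference: CEMIP without BRAFi + MEKi replicate 3, TRIB3 without BRAFi + MEKi + DOX replicate 1, and ENSG00000285816, chosen after its value was seen, without DMSO replicate 2. That count was 0 under the other alternatives run.

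With the replicate block, 4140 genes were raised and 3695 lowered with DOX, and among the gene lists it moved by over 1.5 times the cytokines lowered (from 6 to 10) and the heat shock and ER folding genes raised (from 1 to 4). The numbers were not taken as pairing the samples: deviations of same-numbered libraries correlated across 13739 genes with r of 0.12, 0.008 and 0.19 with DOX, those without DOX with r of 0.30, 0.046 and 0.233 across 13764 genes, and DMSO + DOX replicate 2 correlated best with treated replicate 3.

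For named genes, 2574 alternative values gave 74 losses and 8 gains of a call and 0 reversals of a called change. The sign of changes that were not called differed in 2 values on leaving out 1 library and in 4 under the other alternatives. The list medians that changed sign were those of neural crest (-0.1108, with 0.0651 after rescaling, 0.2178 with array weights and -0.2851 to 0.2370 on leaving out 1 library, positive without BRAFi + MEKi + DOX replicate 1), WNT (0.0305 after rescaling) and cytokines (-0.0443, with 0.1137 after rescaling, 0.1534 with array weights and 0.3322 without BRAFi + MEKi + DOX replicate 1). That of retinoid genes reached 0.00 after rescaling. The cause was not tested. Genes listed near 0 are limited by depth, which was lowest, by estimated reads, in DMSO replicate 1.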

Other observations

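A pair of smaller lists complete the values. Of 20 aminoacyl-tRNA synthetases, which charge tRNAs for translation, 9 were lowered (45%, against 15.1% of all genes) and 3 raised (15%, near the 16.7% of all genes). VARS1 was 6441, 6241 and 5689 with DMSO + DOX and 2721, 2218 and 2732 with BRAFi + MEKi + DOX, a log2 change of -1.26 (adjusted p = 1.4e-05, SE 0.14), and KARS1 fell by 0.88. AARS1 was 9092, 10344 and 9856 with DMSO + DOX and 13626, 13685 and 14666 with BRAFi + MEKi + DOX, a log2 change of 0.52 (adjusted p = 0.0024, SE 0.11), and was higher than the response of 1205Lu (-0.49, adjusted p of the difference = 0.011) and of A375 (-0.61, 0.0035). The number raised was 5 after rescaling, with array weights and with only the 6 libraries compared, and it was 1 without BRAFi + MEKi + DOX replicate 3.

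Of 38 DNA repair and checkpoint genes, 6 were lowered (15.8%, near the 15.1% of all genes) and 1 was raised (2.6%, against 16.7%). The number raised was 0 without DMSO + DOX replicate 1 and 2 after rescaling or without BRAFi + MEKi + DOX replicate 2. The number lowered was 2 after rescaling, 14 with array weights, 3 without DMSO + DOX replicate 2 or BRAFi + MEKi + DOX replicate 3, and 2 without DMSO + DOX replicate 3 or BRAFi + MEKi + DOX replicate 2. In 1205Lu 26 and in A375 21 of the 38 were lowered, against 13.1% and 13.2% of all genes. By the test of the difference, the response was higher in WM793 for 5 against 1205Lu and 6 against A375, and lower for 0 and 1.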
